A study of Mus musculus with 2 samples.

Results

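The nuclear genes of oxidative phosphorylation were followed across the cell types of inflamed mouse ear skin. Members were the matrix rows whose symbols begin with Ndufa, Ndufb, Ndufc, Ndufs, Ndufv, Uqcr, Cox4, Cox5, Cox6, Cox7, Cox8 or Atp5, together with Sdha, Sdhb, Sdhc and Sdhd. This rule found 110 rows, all of them with reads, of 34895 gene rows with reads. They comprised 36 subunits and 8 assembly factors of complex I, 4 subunits of complex II, 8 of complex III, 11 common subunits and 6 tissue-restricted isoforms of complex IV, and 17 genes of complex V. The other members were 18 rows classed here as pseudogenes or retrogene copies, Ndufa4l2, which is a paralog of the complex IV subunit Ndufa4, and Cox7a2l, which helps complexes III and IV to associate. Of the 18, Ndufb1-ps is annotated as a bidirectional promoter lncRNA, had 54637 reads and was not counted in complex I. Together the 110 members took 8508410 reads, or 1.55% of all reads, and 11 members had fewer than 1000 reads in all. The rule names genes by symbol and did not use any measured value.

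The cells came from the ears of male BALB/c wild-type (WT) mice and Ccr2-/- mice aged 7 to 12 weeks, the latter lacking the chemokine receptor through which monocytes leave the bone marrow. All mice received IgE-CAI, a model of IgE-dependent chronic allergic inflammation: 300 µg of anti-TNP IgE was given intravenously, and 10 µg of TNP-OVA was injected into the ear skin on the next day. Ears taken 3 or 5 days after the challenge were digested, the cells of each genotype and day were tagged with their own hashtag antibody, and 10000 labelled cells went through 1 BD Rhapsody run with TAS-Seq amplification. There was thus 1 pool for each genotype and day, with no second pool of any kind and no untreated ear among the libraries, and the number of mice in a pool was not given in the sources used here. A pool was the unit of every comparison, so each spread below may hold differences between mice, genotypes, days and handling alike.

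The matrix held 8953 barcodes and 548117598 reads, with a median of 28324 reads per barcode. After hashtags were assigned and cells with over 20% mitochondrial reads were left out, 7118 cells remained, namely 1543 and 1037 from the WT pools of days 3 and 5, and 2191 and 2347 from the Ccr2-/- pools of those days. Their median depth was 39778, 48232, 34410 and 18632 reads per cell in the same order, in which values by pool are given throughout. Where only 3 values stand, the WT pool of day 5 had fewer than 10 cells of a type and was left out. A gate on cell type markers named 6216 cells (87.3%), and none of its markers is a member. Clusters made without the members gave 96.1% of the gated cells the same name. Gene Ccr2 itself had 866 and 621 counts per 1000000 reads (CPM) in the WT monocyte and macrophage-like (Mo-Mac-like) cells, against 22.6 and 28.3 CPM in those of the Ccr2-/- pools. Transcripts of other cell types were present at levels that varied with the list and the type. The fibroblast gene Col1a1 stood at 11154 CPM in fibroblast-like cells and at 122 to 310 CPM in the other types that were ordered by level. The 7 fibroblast markers summed to 4158 to 4322 CPM in pericyte-like cells. The 7 pericyte markers summed to 508 to 1709 CPM in blood endothelial-like cells, and the 8 Mo-Mac markers to 1167 to 1438 CPM in dendritic cell-like cells.

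Oxidative phosphorylation takes place in the inner mitochondrial membrane. Complex I oxidises NADH and complex II, which is also the succinate dehydrogenase of the TCA cycle, oxidises succinate. Both pass electrons through ubiquinone to complex III, which hands them to cytochrome c, and complex IV transfers them to oxygen. The proton gradient built on the way drives complex V, the ATP synthase. Complexes I, III, IV and V combine nuclear-encoded subunits with a few encoded in mitochondrial DNA, whereas complex II is nuclear-encoded throughout. Neutrophils are known for relying on glycolysis and for holding few mitochondria. Several subunits of complex IV exist as a common isoform and as one restricted to particular tissues, such as heart and skeletal muscle for Cox6a2, Cox7a1 and Cox8b.

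A sequence feature that the rule did not use was found in the promoters of some of these genes. Many nuclear genes for the respiratory chain are known targets of NRF1, a transcription factor with a GC-rich palindromic site. The letters GCGCANGCG, from the core of that site, were searched on both strands in RefSeq promoters of build GRCm38.p6, from 250 bases before to 50 after each start. They were present for 22 of the 75 members with a promoter in the table (29.3%) and for 1901 of all 27025 genes (7.03%). The remaining members had no promoter there, and the genes were not matched for expression or base content. Members that differed between cell types below also include some without a match, such as Atp5b and Cox7b. The windows of 30 bases below lie before the start of members that differed between cell types in the comparisons that follow. Each reads in the direction of its gene, and capitals mark the match, which for Ndufa8 is on the opposite strand. A match describes the letters in this window and was not tested as a binding site.
Cox6a1 (complex IV), chr5:115349101-115349130, minus strand: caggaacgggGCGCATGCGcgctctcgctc
Ndufa5 (complex I), chr6:24527697-24527726, minus strand: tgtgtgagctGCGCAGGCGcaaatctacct
Ndufa8 (complex I), chr2:36049348-36049377, minus strand: tagagcagtgCGCTTGCGCgtcgctggaga
Ndufaf4 (complex I assembly), chr4:24897960-24897989, plus strand: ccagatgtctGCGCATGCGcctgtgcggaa
Sdha (complex II), chr13:74350319-74350348, minus strand: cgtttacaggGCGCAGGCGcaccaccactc
Sdhd (complex II), chr9:50603909-50603938, minus strand: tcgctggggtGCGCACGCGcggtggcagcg

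The summed level of the members differed widely between cell types. It was highest in keratinocyte-like cells and lowest in neutrophil-like cells, and the ratio of these levels averaged 7.91 over the 3 pools that held at least 10 cells of both. Levels are the reads of all members as CPM of the reads in the cells of a type in a pool. Keratinocyte-like cells had 36861 CPM in the WT day 3 pool, 33691 in Ccr2-/- day 3 and 40265 in Ccr2-/- day 5, a mean of 36939 ± 3287 (SD, n = 3). Neutrophil-like cells had 4757, 4555 and 4686 CPM in the same pools, a mean of 4666 ± 102 (SD, n = 3). Neither range met that of any other type among pools of at least 10 cells. The WT day 5 pool, left out for its few cells, had 22043 CPM in 4 keratinocyte-like cells, within the blood endothelial-like range. It had 4104 CPM in 6 neutrophil-like cells. Below the keratinocyte-like cells stood the blood endothelial-like cells with 19987 ± 1621 CPM (SD, n = 4), and the keratinocyte-like level was 1.81 times theirs on average over 3 pools. Basophil-like cells, with 8388, 7609 and 9157 CPM, lay between the neutrophil-like cells and all others, at 1.80 times the neutrophil-like level.

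The other 8 ordered types lay within a narrow band. Blood endothelial-like cells were followed by lymphatic endothelial-like cells (18413 ± 3300 CPM, SD, n = 4), dendritic cell-like (DC-like) cells (17709 ± 566, SD, n = 4), Mo-Mac-like cells (17674 ± 1744, SD, n = 4) and NK-like cells (17191 ± 1958, SD, n = 4). Mast cell-like cells (15253 ± 1368, SD, n = 3), T cell-like cells (14618 ± 1486, SD, n = 4) and fibroblast-like cells (14289 ± 1363, SD, n = 4) closed the band. Neighbours in this order were compared within pools by an exact two-sided sign-flip permutation test, which cannot give a p below 0.125 with 4 pools or below 0.25 with 3. No pair could therefore reach 0.05, and the ratio in each pool is the better guide. DC-like and Mo-Mac-like cells did not differ beyond their spread, with ratios of 0.939 to 1.11 (exact permutation p = 1). Blood and lymphatic endothelial-like cells also overlapped, with ratios of 0.914 to 1.25 (exact permutation p = 0.25). Mo-Mac-like cells exceeded fibroblast-like cells in 4 of 4 pools, by 1.22 to 1.27 times, and fell below blood endothelial-like cells in 4 of 4 (both differences reach the smallest p of 0.125 that an exact permutation test allows here). T cell-like cells exceeded fibroblast-like cells in 4 of 4 pools as well, but by only 1.01 to 1.04 times. Pericyte-like cells reached the minimum of 10 cells in 2 pools, with 19070 and 18460 CPM, and were not ranked.

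**Figure D1:**
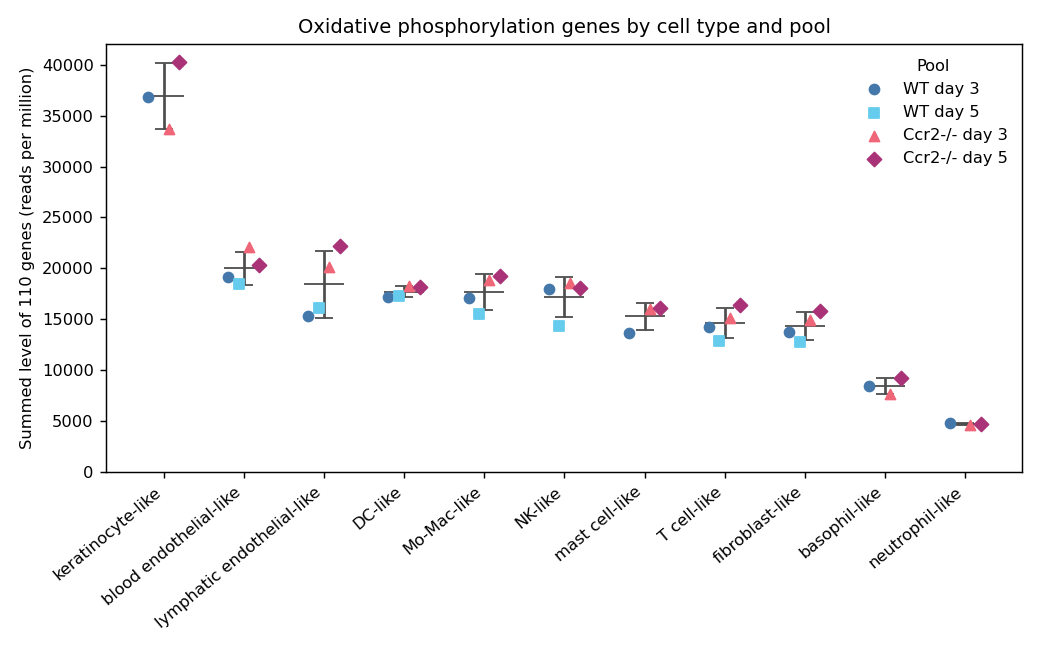
Summed level of the oxidative phosphorylation genes (y axis, CPM) in each marker-gated cell type (x axis), with 1 point for each pool of at least 10 cells, a bar at the mean and whiskers of 1 SD. Keratinocyte-like cells lie between 33691 and 40265 CPM and neutrophil-like cells between 4555 and 4757 CPM, and neither range meets that of another type.

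Most single members followed the summed level. Of the 90 members with a mean of at least 20 CPM in some type, 82 were highest in keratinocyte-like cells and 74 lowest in neutrophil-like cells. Uqcrq, a small subunit of complex III and its most-read member, had 992, 937 and 1114 CPM in keratinocyte-like cells, 247, 299 and 336 CPM in the fibroblast-like ones, and 109.9, 120.1 and 139 CPM in neutrophil-like cells. Those ranges did not overlap. The lowest level of Uqcrq was in basophil-like cells, with 52.2, 73.0 and 111 CPM. The exceptions included Atp5pb, a stalk subunit of complex V, which was highest in mast cell-like cells with 911, 1006 and 893 CPM against 546, 445 and 589 CPM in keratinocyte-like cells. Ndufa6, an accessory subunit of complex I, was highest in DC-like cells (499.5 CPM), Ndufa8, another one, in blood endothelial-like cells (293 CPM), and Sdhd, which anchors complex II in the membrane, in Mo-Mac-like cells (155 CPM). These exceptions were read from the levels after they were seen.

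The depth of a cell moved with its level. In each of the 11 ordered types the cells with over 100000 reads had a higher summed level than the shallower ones, although neutrophil-like and T cell-like cells held only 1 such cell each. In keratinocyte-like cells the 30 deep cells of 63 held 85.0% of the reads, at 38208 CPM in them against 24976 CPM in the others. In fibroblast-like cells 1135 of 2604 cells held 78.4% of the reads, at 15258 against 13293 CPM. Without the deep cells the keratinocyte-like mean was 24219 CPM, still the highest, and 1.36 times the blood endothelial-like mean. These means cover different pools, since Ccr2-/- day 5 kept only 9 shallower keratinocyte-like cells. In the day 3 pools, with 11 such cells each, keratinocyte-like cells had 21448 (WT) and 26991 CPM (Ccr2-/-). Blood endothelial-like cells had 18621 and 18790 CPM there. The neutrophil-like mean without deep cells was 4578 CPM, still the lowest. The Mo-Mac-like mean, which also covered WT day 5, was 3.54 times as high. Median depth was 81873 reads in keratinocyte-like and 9571 reads in neutrophil-like cells. Other transcripts moved along with the members. The 13 mitochondrially encoded subunits summed to 86569 CPM in keratinocyte-like and 5829 CPM in neutrophil-like cells, and cytosolic ribosomal protein genes to 146699 and 13885 CPM. The S100a8 transcript alone, for an abundant neutrophil calcium-binding protein, took 16546 CPM of the neutrophil-like reads. The part of depth and of RNA composition in these levels was not tested.

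The balance between the complexes varied less than the total. As a percentage of the reads of the subunits and isoforms, with assembly factors and pseudogenes left out, complex I ranged over the types from 24.7 ± 2.27% (SD, n = 3) in neutrophil-like cells to 30.7 ± 1.13% (SD, n = 4) in lymphatic endothelial-like cells. Complex IV ran the other way, with its highest share of 32.4 ± 1.64% (SD, n = 3) in neutrophil-like cells and its lowest of 25.4 ± 1.35% (SD, n = 3) in mast cell-like cells. Complex V took its highest share of 34.2 ± 1.94% (SD, n = 3) in mast cell-like cells and its lowest of 26.5 ± 1.33% (SD, n = 4) in lymphatic endothelial-like cells. Complex II was the one with the largest relative range: it made up 3.28 ± 0.25% (SD, n = 4) in Mo-Mac-like cells and 1.76 ± 0.19% (SD, n = 3) in keratinocyte-like cells. Keratinocyte-like cells had the highest share for complex III, 12.3 ± 0.16% (SD, n = 3). Reads of the mitochondrially encoded subunits per member read were highest in T cell-like cells, 2.90 ± 0.25 (SD, n = 4), and lowest in neutrophil-like cells, 1.24 ± 0.58 (SD, n = 3), where the 3 pools spread from 0.736 to 1.87. Mo-Mac-like cells had 1.60 ± 0.11 (SD, n = 4).

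**Figure D2:**
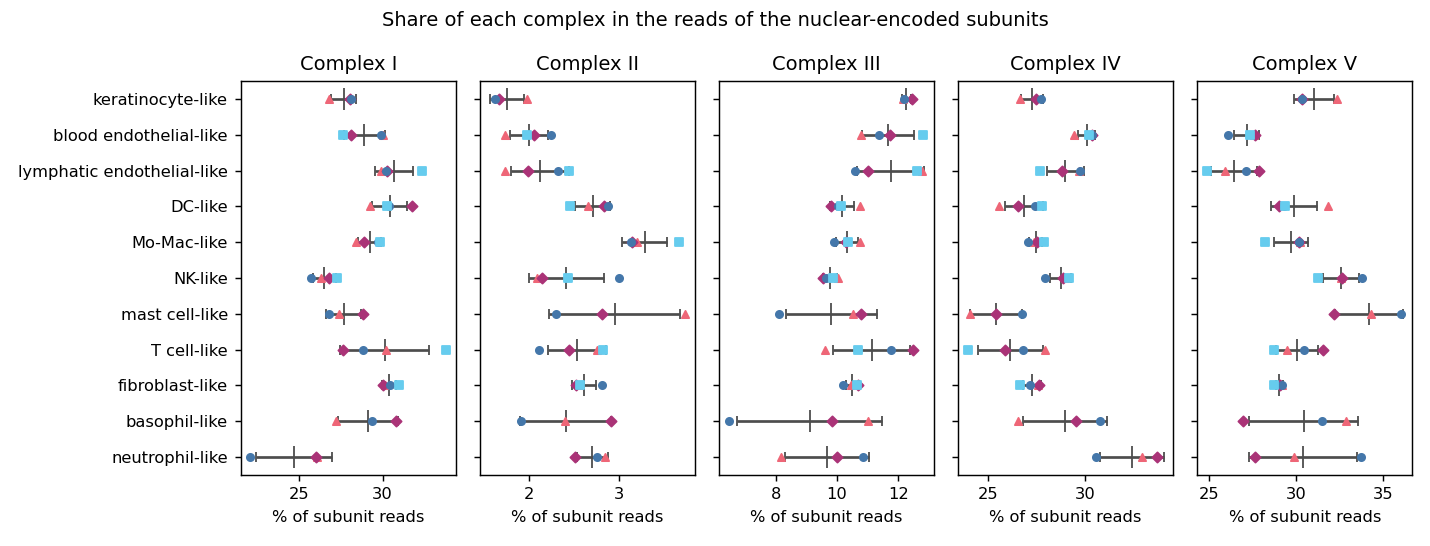
Share of the reads of subunits and isoforms taken by each of complexes I to V (x axes, percent, 1 panel per complex) by cell type (y axis), with 1 point per pool, a tick at the mean and whiskers of 1 SD. Complex IV is highest in neutrophil-like cells (32.4%) and complex V in mast cell-like cells (34.2%), while complex II is highest in Mo-Mac-like cells (3.28%).

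Differences between types were then tested gene by gene with edgeR's quasi-likelihood test on reads summed per pool and type, with the pool as a block and p-values adjusted by the Benjamini-Hochberg method over all genes tested. A member is called where its adjusted p is under 0.05. Fold changes here follow TMM scaling, which assumes that most genes do not differ, so they can be smaller or larger than a ratio of CPM. The median log2 fold change over all genes still lay off level in several contrasts. It was -0.59 for neutrophil-like against Mo-Mac-like cells and -0.57 for keratinocyte-like against fibroblast-like cells.

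Neutrophil-like cells had lower levels of nearly the whole respiratory chain than Mo-Mac-like cells. Of 100 members tested over 3 pools, 82 were lower and 0 higher, where 25.4% of all 15653 genes were lower and 12.1% higher. The median log2 fold change was -2.27 over the members and -0.59 over all genes. All 4 subunits of complex II, all 8 of complex III and all 17 genes of complex V fell, along with 35 of 36 subunits of complex I and 12 of 15 genes tested for complex IV. The exceptions were Ndufa3 (-0.95) in complex I, and Cox8a (-0.46), Cox6b2 (-0.64) and Cox4i2 (0.42) in complex IV. Atp5b, the catalytic beta subunit of complex V, had 238, 126 and 88.5 CPM in neutrophil-like cells and 501, 621 and 682 CPM in Mo-Mac-like cells of the same pools. Cox6c, a small subunit of complex IV, had 72.5, 109 and 71.0 CPM against 426, 443 and 415 CPM. The groups did not overlap for either gene.

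Assembly factors and isoforms gave the largest falls in neutrophil-like cells. Ndufaf4, which helps to build complex I, had 0, 0.72 and 1.83 CPM against 27.9, 68.2 and 42.5 CPM, a log2 fold change of -5.42 (SE 0.80, adjusted p = 0.0014, edgeR). Ndufaf5, another assembly factor, had 1 read in neutrophil-like cells and 166 in Mo-Mac-like cells. Cox7a1 and Cox6a2 had no read in the neutrophil-like cells of these pools, which makes them at least 50.9-fold and at least 24.8-fold lower against a floor of 3 reads over the group. Cox8a, the common isoform of a small complex IV subunit, had the smallest change of its complex's common subunits, with 305, 361 and 372 CPM against 474, 512 and 473 CPM. Its log2 fold change of -0.46 did not pass the test (adjusted p = 0.22, edgeR). Positive values were seen for Ndufa4l2 (2.40), Ndufaf2 (0.85), Cox4i2 (0.42) and Ndufaf7 (0.34), and none of these was called, although Ndufa4l2 and Ndufaf2 were called higher without the WT pool of day 3. Genes outside the rule fell too. All 13 mitochondrially encoded subunits were lower, as were 11 of 13 TCA cycle enzymes, 16 of 25 other assembly factors and electron carriers (1 was higher), 3 of 8 regulators of mitochondrial genes, and 83 of 88 ribosomal protein genes. Leaving out 1 pool at a time gave 61 to 78 lower members.

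Keratinocyte-like cells stood at the opposite end. Against fibroblast-like cells 79 of 100 members were higher and 0 lower over 3 pools, where 9.61% of all 17921 genes were higher and 15.3% lower. The median log2 fold change was 1.23 over the members and -0.57 over all genes. All 8 subunits of complex III and all 17 genes of complex V rose, along with 34 of 36 subunits of complex I, 12 of 15 genes of complex IV and 2 of 4 of complex II. Uqcr11, a small subunit of complex III, had 714, 538 and 793 CPM in keratinocyte-like cells against 143, 167 and 188 CPM in fibroblast-like cells, a log2 fold change of 2.05 (SE 0.19, adjusted p = 4.7e-05, edgeR). Cox7b, a complex IV subunit, had 1109.7, 916 and 1458 CPM against 258, 303 and 323 CPM, a log2 fold change of 1.98 (SE 0.17, adjusted p = 3.8e-05, edgeR). The groups of neither gene overlapped. Cox5b-ps, a processed copy of Cox5b whose reads may belong to Cox5b itself, rose by 2.04. Cox7a1, the restricted partner of Cox7a2, rested on 41 reads in keratinocyte-like cells, at 5.78 CPM against 0.316 CPM. Its adjusted p of 0.029 (edgeR) was lost without the Ccr2-/- day 3 pool.

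Of the members that did not pass in keratinocyte-like cells, many were assembly factors. None of the 8 named Ndufaf assembly factors was called, with log2 fold changes from -0.34 for Ndufaf6 to 0.96 for Ndufaf5. The membrane anchors Sdhc (0.72) and Sdhd (0.44) of complex II were not called either, nor were the complex I subunits Ndufa2 (0.42) and Ndufa13 (0.20) or the complex IV isoforms Cox4i2, Cox6a2 and Cox6b2. Ndufa2 is the most-read member of complex I and had 315, 241 and 320 CPM against 208, 220 and 229 CPM in fibroblast-like cells. Beside them, 12 of 13 mitochondrially encoded subunits and 82 of 88 ribosomal protein genes were higher, but 6 of 13 TCA cycle enzymes and 6 of 25 other assembly factors and carriers. Keratinocyte-like cells had a median mitochondrial share of 9.14% of their reads.

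Some members were lower and a few higher in fibroblast-like than in Mo-Mac-like cells. Over 4 pools 24 of 100 members were lower in fibroblast-like cells and 6 higher, where 16.8% of all 19572 genes were lower and 22.5% higher. The median was -0.20 over the members and 0.09 over all genes on the log2 scale. All 4 genes of complex II were lower. Their log2 fold changes were -0.54 for Sdha, the flavoprotein subunit, -0.55 for Sdhb, the iron-sulphur subunit, and -0.60 and -0.52 for the anchors Sdhc and Sdhd. Sdhb had 120.4, 102, 112 and 116 CPM in fibroblast-like cells, against 169, 172, 173 and 187 CPM in Mo-Mac-like cells. Sdhc had 60.9, 54.0, 72.3 and 68.9 CPM against 92.9, 99.5, 111 and 109 CPM. The groups of both genes were separate.

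Larger differences were seen in complexes I and IV. Cox5a, a matrix-facing subunit of complex IV, had 155, 134, 212 and 217 CPM in fibroblast-like cells and 343, 325, 431 and 442 CPM in Mo-Mac-like cells, a log2 fold change of -1.03 (SE 0.11, adjusted p = 0.00039, edgeR). Ndufb8, an accessory subunit of complex I, had 154, 142, 179 and 188 CPM against 349, 293, 353 and 398 CPM, a log2 fold change of -0.98 (SE 0.11, adjusted p = 0.00045, edgeR). In the other direction, Cox6c was higher in fibroblast-like cells, with 585, 476, 573 and 614 CPM against 426, 418, 443 and 415 CPM (log2 fold change 0.48, SE 0.11, adjusted p = 0.011, edgeR). Ndufa5 (0.60) and Ndufb2 (0.52), accessory subunits of complex I, were also higher. No group overlapped another in Cox5a, Ndufb8 or Cox6c. Without TMM scaling 3 members were higher and 33 lower, and without 1 pool 2 or 3 were higher and 14 to 20 lower. Of the 89 ribosomal protein genes tested, 52 were higher in fibroblast-like cells, as were 3 of 13 mitochondrially encoded subunits, while 3 TCA cycle enzymes were lower.

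T cell-like cells had 18 of 98 members lower than Mo-Mac-like cells and 0 higher, where 10.3% of all 14133 genes were lower and 5.46% higher. The median log2 fold change was -0.75 over the members and -0.41 over all genes, and without TMM scaling 3 members (Ndufab1, Ndufb8 and Atp5g3) were lower and 2 (Cox7a2l and Uqcrh) higher. Ndufab1, the mitochondrial acyl carrier protein that is also part of complex I, had 30.6, 6.98, 31.0 and 17.3 CPM in T cell-like cells against 89.4, 75.8, 139 and 141 CPM in Mo-Mac-like cells. Its log2 fold change of -2.71 (SE 0.47, adjusted p = 0.0036, edgeR) passed under all alternatives run, while Ndufs7 (-1.61), Sdhd (-1.47) and Ndufc1 (-1.40) lost their calls under several. The count of lower members depended on each pool: leaving out the WT pools of days 3 and 5 gave 4 and 12, and leaving out the Ccr2-/- pools gave 1 and 5. In the same cells 3 of 13 mitochondrially encoded subunits and 21 of 87 ribosomal protein genes were higher and 2 ribosomal genes lower. T cell-like cells numbered 45, 13, 66 and 51.

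Few members were called between DC-like and Mo-Mac-like cells. Of 99 members 3 were higher and 0 lower, where 4.88% of all 14622 genes were higher and 6.4% lower, so the share higher was near that of all genes. The 8 Mo-Mac markers summed to 1167 to 1438 CPM in the DC-like pools, against 6260 to 8134 CPM in the Mo-Mac-like pools and at most 645 CPM in any other ordered type, and their part in these values was not tested. Ndufa6 had 507, 552, 410.2 and 528 CPM in DC-like cells against 194, 212, 162 and 188 CPM in Mo-Mac-like cells, a log2 fold change of 1.42 (SE 0.14, adjusted p = 0.0011, edgeR). Ndufb11, another accessory subunit of complex I, had 216, 201, 261 and 279 CPM against 123, 123, 120 and 137 CPM (log2 fold change 0.93, SE 0.16, adjusted p = 0.0095, edgeR). In both genes the lowest DC-like pool stood above the highest Mo-Mac-like pool. Cox6b2, a complex IV isoform best known from testis, had 61.7, 17.6, 21.5 and 40.2 CPM against 3.33, 7.0, 0.11 and 1.79 CPM. Its log2 fold change was 4.03 (SE 0.86, adjusted p = 0.025, edgeR), and the call was lost without WT day 3 and without Ccr2-/- day 5. The count itself was 1 without Ccr2-/- day 5, and DESeq2 called 5 members higher and 2 (Sdha and Sdhc) lower.

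Blood endothelial-like cells had 12 of 100 members higher than fibroblast-like cells and 0 lower, where 6.41% of all 18108 genes were higher and 9.68% lower. The median log2 fold change was 0.19 over the members and -0.30 over all genes. Ndufa8 had 374, 223, 307 and 269 CPM in blood endothelial-like cells against 95.6, 85.9, 117 and 115 CPM in fibroblast-like cells, a log2 fold change of 1.27 (SE 0.17, adjusted p = 0.0017, edgeR). Uqcr11 had 301, 247, 376 and 331 CPM against 143, 141, 167 and 188 CPM (log2 fold change 0.75, SE 0.14, adjusted p = 0.0095, edgeR). The iron-sulphur subunit Ndufs8 of complex I (0.94) and Cox7a2 of complex IV (0.70) were higher as well. For Ndufa8 and Uqcr11 every endothelial pool exceeded every fibroblast pool. The count called was 28 members higher without TMM scaling, 26 by DESeq2, and 3 without the Ccr2-/- day 3 pool or without the Ccr2-/- day 5 pool. Of the 13 mitochondrially encoded subunits, 9 were higher in blood endothelial-like cells.

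**Figure D3:**
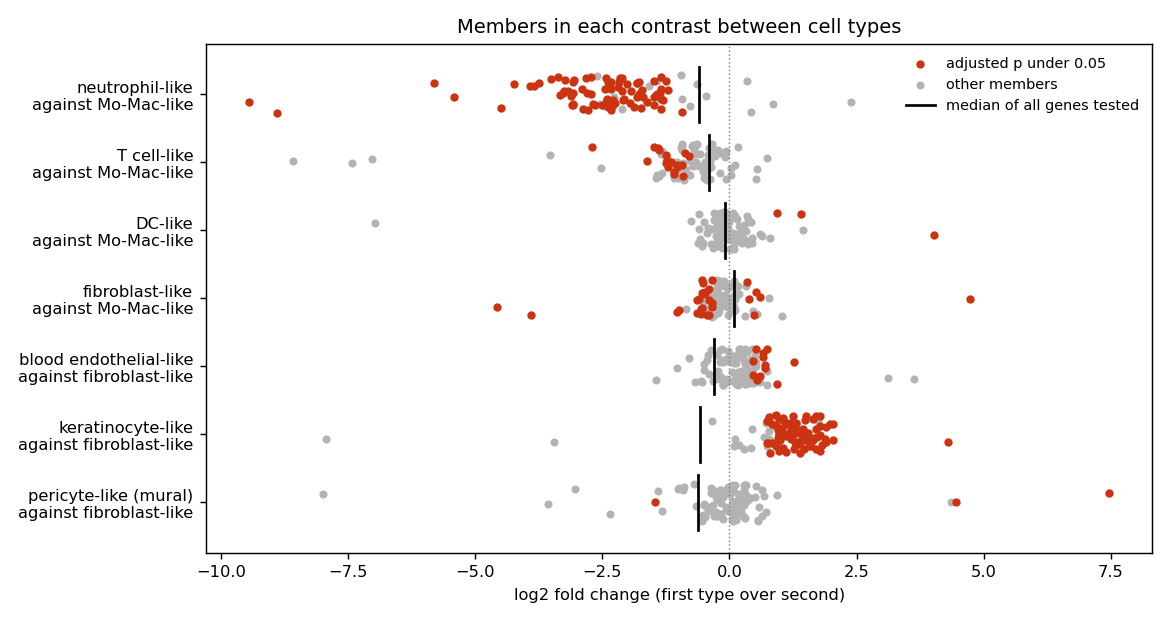
Log2 fold change (x axis) of every member tested in each contrast between cell types (y axis, with random vertical spread), with 1 point per member, called members in red and a black line at the median of all genes tested. Members lie mostly to the left in neutrophil-like cells (median -2.27) and to the right in keratinocyte-like cells (median 1.23).

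The restricted isoforms marked particular cell types. Shares are the reads of the restricted gene as a percentage of the reads of the gene and its common partner, compared between types. They are read shares and not molar ones, and their exact (Clopper-Pearson) 95% intervals cover counting error only, since reads here can be copies of 1 molecule.

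Pericyte-like cells stood apart in Ndufa4l2, which lies at chr10:127514967-127517154 in GRCm38 and can take the place of Ndufa4, and in Cox4i2, the oxygen-sensitive isoform of Cox4i1, at chr2:152754173-152765037. In the 45 pericyte-like cells Ndufa4l2 gave 1158 reads against 400 of Ndufa4, a share of 74.3% (95% interval 72.1% to 76.5%). By pool the share was 70.0%, 86.4%, 65.9% and 80.2%, over 16, 2, 9 and 18 cells. The reads came from 36 of the 45 cells, and the cell with most of them held 11.9%. Cox4i2 gave 458 reads against 1194 of Cox4i1, a share of 27.7% (95% interval 25.6% to 30.0%), and was read in 25 of the 45 cells. Its share was 22.1%, 36.8%, 30.6% and 30.4% in the same pools. In fibroblast-like cells the shares over all pools were 4.73% for Ndufa4l2 and 0.174% for Cox4i2.

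With pools of at least 5 cells, a limit chosen after seeing that the planned minimum of 10 left too few pools, the pericyte-like cells could be tested against fibroblast-like cells over 3 pools. Of 100 members 2 were higher and 1 lower, where 1.86% of all 17249 genes were higher and 2.93% lower. The share higher was thus near that of all genes, and the share lower was below it. The higher members were Ndufa4l2, with 463 ± 57.9 CPM against 18.4 ± 5.45 CPM (SD, n = 3; log2 fold change 4.45, SE 0.36, adjusted p = 3.5e-11, edgeR), and Cox4i2, with 164 ± 34.6 CPM against 0.778 ± 0.123 CPM (SD, n = 3; log2 fold change 7.47, SE 0.61, adjusted p = 5.3e-11, edgeR). The lower one was Ndufa4, with 182 ± 64.7 CPM against 413 ± 38.4 CPM (SD, n = 3; log2 fold change -1.47, SE 0.29, adjusted p = 0.00090, edgeR). DESeq2 did not call Ndufa4, at an adjusted p of 0.19. The median over the members was -0.02 on the log2 scale, against -0.63 over all genes.

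Ndufa4l2 was read elsewhere at lower shares. Fibroblast-like cells held most of its reads in number, 6163 over 470 of 2604 cells, and their share was 6.16% and 14.4% in the WT pools and 3.67% and 3.18% in the Ccr2-/- pools. It was higher there than in Mo-Mac-like cells, at 26.8 ± 17.3 CPM against 1.08 ± 0.79 CPM (SD, n = 4; log2 fold change 4.74, SE 0.24, adjusted p = 1.6e-05, edgeR). In blood endothelial-like cells the share was 1.24%, 1.36%, 14.0% and 3.33% in the 4 pools. The summed level of the 7 mural markers used for pericyte-like cells moved with it in blood endothelial-like cells, at 549, 508, 1709 and 1254 CPM, against 10169 to 12308 CPM in pericyte-like cells. Among them Rgs5 had 323, 269, 1310 and 903 CPM, 6 or 7 of the 7 markers had a read in each pool, and Higd1b was at 0 in both day 5 pools. With clusters in place of the gate, the blood endothelial-like share over all pools was 21.1% rather than 5.68%, and no cluster was named pericyte-like. The part of mural RNA or of doublets in these endothelial reads was not tested. In neutrophil-like cells Ndufa4l2 made 10.7% of the pair, but 72.4% of its 76 reads lay in 1 cell.

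The muscle isoforms were prominent in the 15 cells gated as skeletal muscle-like, none of whose pools reached 10 cells. Cox6a2 made 80.6% of its pair there (95% interval 77.4% to 83.5%), Cox8b 54.7% (50.5% to 58.9%) and Cox7a1 50.1% (45.6% to 54.6%). A single cell held 54.8% of the Cox6a2 reads. By pool the Cox7a1 share was 65.2% in Ccr2-/- day 3 and 30.1% in Ccr2-/- day 5, and the Cox8b share 52.6% and 57.1%.

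Mo-Mac-like cells carried reads of Cox7a1 as well, a gene at chr7:30184144-30186078 in GRCm38. They gave 719 reads in 110 of 972 cells, a share of 3.89% (95% interval 3.62% to 4.18%), and the cell with most of them held 3.48%. The level was 13.8, 10.3, 7.91 and 10.9 CPM in the 4 pools, against a mean of 0.627 CPM in fibroblast-like cells (log2 fold change of fibroblast-like over Mo-Mac-like cells -4.57, SE 0.69, adjusted p = 0.0020, edgeR). The 6 muscle markers together stood at 2.78 to 7.29 CPM in Mo-Mac-like cells and at 25475 to 44370 CPM in muscle-like cells, and Cox8b had 7 reads in Mo-Mac-like cells. Cox6a2 was also higher in Mo-Mac-like than in fibroblast-like cells, 5.44 ± 2.03 CPM against 0.508 ± 0.460 CPM (SD, n = 4; adjusted p = 0.010, edgeR). DC-like cells had Cox7a1 at 3.61% of its pair and Cox6a2 at 3.38%, the latter from 10 cells. Cox6b2 made 7.17% of its pair in DC-like cells (95% interval 6.61% to 7.76%), in 45 of 255 cells, with 11.7%, 3.31%, 4.38% and 6.88% in the 4 pools. Cox8c had 4 reads, all in mast cell-like cells, and Cox7b2 had no row.

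**Figure D4:**
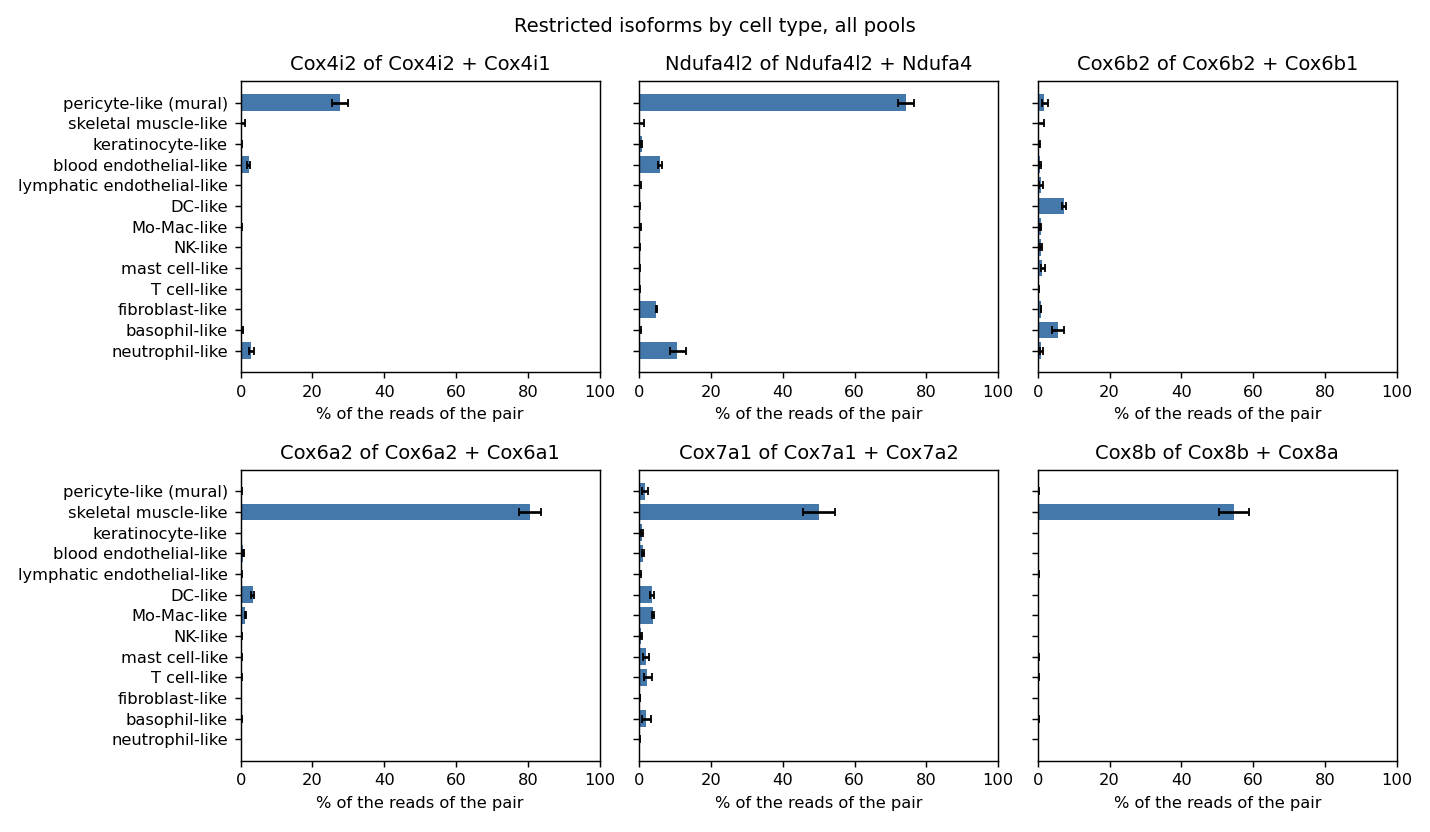
Reads of 6 restricted isoforms as a percentage of their pair (x axes, 1 panel per isoform) by cell type (y axis), as bars over all pools with 95% exact binomial intervals. Ndufa4l2 reaches 74.3% and Cox4i2 27.7% in pericyte-like cells, and Cox6a2, Cox8b and Cox7a1 reach 80.6%, 54.7% and 50.1% in skeletal muscle-like cells.

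The genotypes and days were compared within each type, where each combination is a single pool. The summed level in Ccr2-/- over WT cells was above 1 in 8 of 11 types on day 3 and in 7 of 7 types on day 5. The ratio on day 3 and day 5 was 1.09 and 1.25 in fibroblast-like cells, 1.11 and 1.24 in Mo-Mac-like cells, 1.31 and 1.38 in lymphatic endothelial-like cells, 1.16 and 1.10 in blood endothelial-like cells and 1.06 and 1.05 in DC-like cells. Keratinocyte-like (0.914), neutrophil-like (0.958) and basophil-like (0.907) cells were below 1 on day 3. Of the 7 types present in all 4 pools, 5 had their lowest level in WT day 5 and 2 in WT day 3, while 4 had their highest in Ccr2-/- day 5 and 3 in Ccr2-/- day 3. The types share these 4 pools, so they do not count as separate observations of a genotype, and a difference between genotypes cannot be told apart from one between pools. Within a type the Ccr2-/- cells had the higher median depth in 9 of 11 types on day 3 and in 5 of 7 on day 5. The median was 51215 and 50265 reads in the WT Mo-Mac-like cells against 65257 and 66961 reads in the Ccr2-/- ones, and 59053 and 63247 against 103282 and 98860 reads in fibroblast-like cells. Without the cells of over 100000 reads the ratio on day 3 and day 5 was 1.03 and 1.11 for the Mo-Mac-like type, while for fibroblast-like cells it was 1.14 and 1.30, and it was above 1 in 9 of 11 types and in 6 of 7. It crossed 1 in keratinocyte-like cells on day 3, at 1.26, and in lymphatic endothelial-like cells on day 5, at 0.943. In Mo-Mac-like cells the ratio of the mitochondrially encoded subunits was 1.19 and 1.32 and that of the ribosomal protein genes 1.12 and 1.06. Mo-Mac-like cells numbered 393 and 394 in the WT pools and 106 and 79 in the Ccr2-/- pools, and the subsets within them were not separated here. The part of subset makeup was not tested.

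**Figure D5:**
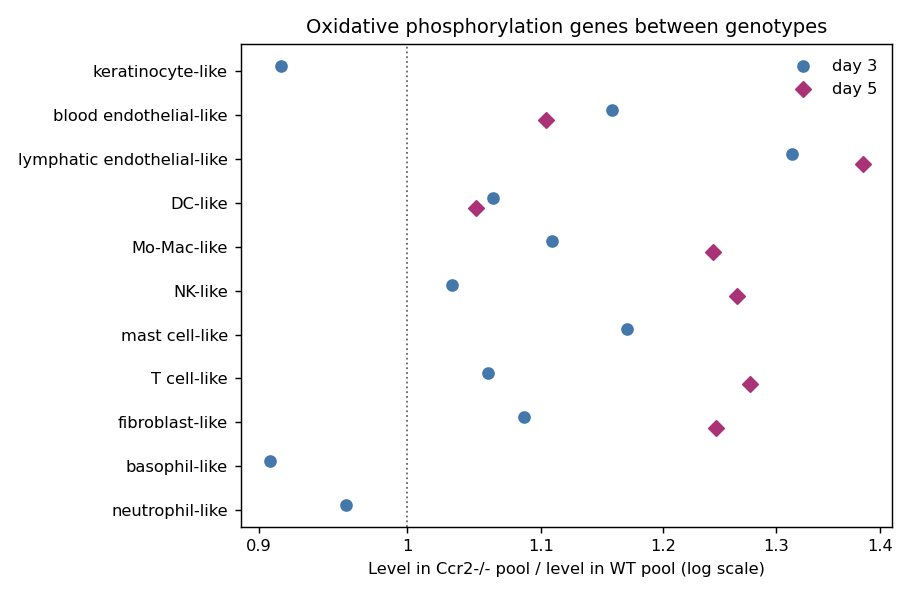
Ratio of the summed level in the Ccr2-/- pool to that in the WT pool (x axis, log scale) for each cell type (y axis), with a circle for day 3 and a diamond for day 5 where both pools held 10 cells. All 7 diamonds and 8 of 11 circles lie above 1, and each point compares 2 pools.

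No member was called between genotypes or between days. The test by edgeR, with day and genotype as terms and 1 residual degree of freedom, was run in Mo-Mac-like, fibroblast-like, T cell-like, DC-like and blood endothelial-like cells. It called 0 members in each of the 5 types for either term. Over all genes the genotype term called 0.12% as higher and 0.126% as lower in Mo-Mac-like cells, 0.0114% as lower in T cell-like cells, 0.00807% as lower in DC-like cells, 0.0081% as higher in blood endothelial-like cells and 0.0% in fibroblast-like cells. The day term called 0.0227% of all genes as higher in T cell-like cells and 0.0% in the other types. At an unadjusted p under 0.05 the genotype term held 50 of 102 members in fibroblast-like cells, 47 of them higher in Ccr2-/-, against 22.1% of all genes in either direction. In Mo-Mac-like cells it held 22 of 100 members, 20 of them higher, against 15.7% of all genes. T cell-like, DC-like and blood endothelial-like cells had 3, 5 and 3 such members, against 2.89%, 7.45% and 4.01% of all genes. The day term held 5 members in Mo-Mac-like, 3 in fibroblast-like, 1 in T cell-like, 3 in DC-like and 1 in blood endothelial-like cells, against 8.15%, 6.42%, 2.36%, 3.53% and 2.92% of all genes. DESeq2 called 14 members higher and 2 lower in fibroblast-like cells and 2 higher and 1 lower in Mo-Mac-like cells, and 0 in the other types for genotype and in all 5 for day.

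The median log2 fold change of Ccr2-/- over WT was 0.28 over the members in Mo-Mac-like cells and 0.28 in fibroblast-like cells, where it was -0.04 and 0.01 over all genes. The members with the smallest unadjusted p follow, and they were picked after their values were seen, so their sizes are extremes. In fibroblast-like cells Ndufb6, an accessory subunit of complex I, stood at 145 and 134 CPM for the WT pools against 201 and 201 CPM for the Ccr2-/- pools (log2 fold change 0.57, SE 0.09, adjusted p = 0.079, edgeR). Cox5a had 155 and 134 CPM against 212 and 217 CPM there (log2 fold change 0.61, SE 0.10, adjusted p = 0.082, edgeR). In Mo-Mac-like cells Ndufa1, a membrane subunit of complex I, went the other way, from 398 and 469 CPM for the WT pools to 196 and 241 CPM for the Ccr2-/- ones (log2 fold change -0.96, SE 0.17, adjusted p = 0.10, edgeR). In the same cells Ndufaf4 stood at 27.9 and 17.2 CPM against 68.2 and 42.5 CPM (log2 fold change 1.32, SE 0.24, adjusted p = 0.11, edgeR). None of the 4 passed the adjusted threshold.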

How the data were processed

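The authors deposited a gene by barcode table of read counts from 1 cDNA library and a table of hashtag read counts. Per the labels and the study's methods, they trimmed adapters with Cutadapt and mapped reads with Bowtie2 to Ensembl RNA sequences of GRCm38.p6. These counts are reads and not molecules, and come from transcript 3′ ends. A further 9 columns of hashtag reads were not used.

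Hashtag reads plus 1 were divided by each hashtag's total. A barcode was assigned to a pool where the highest value was at least 3 times the next and it had at least 10 hashtag reads. This left out 760 barcodes with few hashtag reads and 570 with several hashtags. Doublets within a pool were not removed. Cells needed at least 200 genes and at most 20% mitochondrial reads. Each cell was scored for 20 marker lists (126 of 127 markers found), and was named where its best score was at least 0.3, the gap to the next at least 0.1, and at least 3 markers had a read. These limits were set after the marker scores were seen, and 739 cells lay within 0.05 of the gap limit and 441 within 0.05 of the score limit. Members and gene lists were chosen with earlier results of these data known. Positions come from GENCODE M21 (103 of 110 members matched).

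Reads were summed per pool and type. Types with at least 10 cells in at least 3 pools were ordered by level. Tests used edgeR 4.0.16 (quasi-likelihood, TMM, filterByExpr, Benjamini-Hochberg, R 4.3.3), with DESeq2 1.42.0 as an alternative. The edgeR step was tested on simulated data. Scanpy 1.11.5 made the clusters. Named genes were, in each contrast between types, up to 4 called members in each direction with the largest log2 fold change that moved the same way in every pool, the members of the isoform pairs, the 4 Sdh genes, and the most-read member of each complex. Genes called between genotypes or days would have been added, up to 4 in each direction. Alternatives changed the hashtag ratio, the gate, the naming by clusters, the mitochondrial limit, the weighting of cells, the CPM denominator, the member set, the scaling, the filter, the block and the pools used. Pools are the only replicates. Between types, p-values measure how the difference between the types varied over the pools, beside counting noise. For genotype and day each gene has 1 residual degree of freedom. The spread is what those terms leave over, moderated by edgeR toward a trend over all genes.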

Additional observations from a re-analysis of the deposited data

Results flagged for a closer look

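In 47 sets of 4 pools, 7 had 1 pool far from the other 3 by Dixon's criterion at the 95% level, and chance alone gives about 1 in 20. The sets share their pools, and the complex shares within a type depend on each other, so 7 cannot be read as an excess. The summed level in NK-like cells was 14278 CPM in WT day 5. The Ndufa4l2 share in blood endothelial-like cells was 14.0% in Ccr2-/- day 3, the pool with the highest mural marker level in those cells, and the complex IV share there was 29.4%, the lowest of the 4. The complex I share in lymphatic endothelial-like cells was 32.4% in WT day 5, a pool of 12 such cells. In Mo-Mac-like cells of WT day 5 the complex II share was 3.66% and the complex V share 28.2%. The complex V share in DC-like cells was 31.8% in Ccr2-/- day 3, a pool of 33 such cells.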

How the results depend on the processing

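Levels changed by more than 1 SD over the pools in 17 values, and the cause was not tested. The keratinocyte-like level, with a mean of 36939 CPM in the main setting, was among them under several alternatives. Without cells over 100000 reads (added after seeing the data) the keratinocyte-like mean was 24219 CPM and the blood endothelial-like mean 17747 CPM. The former rested on the day 3 pools alone. With cells weighted equally the means were 30017 CPM (keratinocyte-like), 17675 CPM (blood endothelial-like), 16755 CPM (DC-like) and 4403 CPM (neutrophil-like). With ribosomal protein reads taken out of the denominator they were 43311 CPM (keratinocyte-like), 22227 CPM (blood endothelial-like), 19589 CPM (NK-like), 19387 CPM (DC-like) and 16415 CPM (T cell-like), and with mitochondrially encoded reads taken out 41108 CPM (keratinocyte-like) and 18462 CPM (DC-like). A mitochondrial limit of 10% gave 31912 CPM (keratinocyte-like), a stricter gap 4461 CPM (neutrophil-like), and structural subunits alone 17025 CPM (DC-like) and 4442 CPM (neutrophil-like). The other 81 level values stayed within 1 SD, as did all 40 that left out 1 pool, and under each of these settings keratinocyte-like cells remained highest and neutrophil-like cells lowest.

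The ratio of Ccr2-/- over WT without cells over 100000 reads (also added after seeing the data) went from 0.914 to 1.26 in keratinocyte-like cells on day 3 and from 1.38 to 0.943 in lymphatic endothelial-like cells on day 5, and it was above 1 in 9 types on day 3 and 6 on day 5. The cause was not tested.

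Isoform shares changed under some settings. The Ndufa4l2 share of blood endothelial-like cells was 21.1% with clusters, none of which was named pericyte-like. In muscle-like cells Cox6a2, Cox7a1 and Cox8b made 73.2%, 66.7% and 63.4% with the 10% mitochondrial limit and 87.8%, 79.6% and 69.5% with cells weighted equally, and without 1 pool Cox6a2 ranged from 68.1% to 88.4% and Cox7a1 from 33.9% to 66.9%.

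Counts of called members depended on the scaling and the tool. In T cell-like cells library sizes alone gave 2 higher and 3 lower members, and in fibroblast-like cells 3 higher than in Mo-Mac-like cells. In DC-like cells DESeq2 gave 5 higher and 2 lower, while no filter, no pool block or clusters each gave 1 lower (Cox4i2, Sdhc and Cox6a2). In blood endothelial-like cells DESeq2 gave 26 higher, library sizes alone 28, and no pool block 19 higher and 1 lower (Ndufa13). In keratinocyte-like cells DESeq2 and no filter each gave 1 lower (Ndufa4l2), and in pericyte-like cells DESeq2 gave 0 lower. For genotype DESeq2 gave 2 higher and 1 lower in Mo-Mac-like cells and 14 higher and 2 lower in fibroblast-like cells, and no filter gave 8 higher and 2 lower in the former and 4 higher in the latter. Leaving out 1 pool gave 1 to 12 lower members in T cell-like cells, 1 to 3 higher in DC-like cells, 2 to 3 higher and 14 to 20 lower in fibroblast-like cells, 3 to 12 higher and 0 to 1 lower in blood endothelial-like cells, 0 to 1 lower in keratinocyte-like cells and 0 to 2 higher in neutrophil-like cells. Named genes lost their call in 36 of 286 refits, 25 of them without 1 pool, and none changed direction.

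Types were paired within pools by the pool block. Between genotypes or days no pairing of mice was possible, because each genotype and day is 1 pool. Genotype and day could not be refitted without a pool, since no residual degree of freedom was left. Mast cell-like cells had too few cells in 1 pool for that fit, the pericyte-like contrast was not run with clusters, and clusters gave no lymphatic endothelial-like level. Median depth was 16688 reads in T cell-like, 9571 in neutrophil-like and 7856 in muscle-like cells, which limits low members there.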
